A study of Mus musculus with 8 samples.

Results

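The genes described here encode the nuclear-encoded parts of respiratory complexes II to V. They were taken by name from the deposited expression tables, as every gene whose symbol begins with Sdha, Sdhb, Sdhc, Sdhd, Uqcr, Cyc1, Cycs, Cox followed by a digit, Atp5 or Atpif1, which gave 59 of 16599 gene names. The rule uses gene names only. Sorted by role, the 59 names held 4 subunits and 2 assembly factors of complex II, 9 subunits of complex III, cytochrome c, 11 subunits, 6 tissue isoforms and 7 assembly factors of complex IV, and 5 F1 subunits, 10 stalk and Fo subunits and 3 inhibitor or related genes of complex V. The remaining name, Cox4nb, fits the rule by its letters only, since the gene is now called Emc8 and encodes a subunit of a protein insertion complex of the endoplasmic reticulum. Atp5s and Atp5sl are now called Dmac2l and Dmac2 and are not structural subunits of ATP synthase.

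Each neuron was patch-clamped and then collected for RNA-seq (Patch-seq), to ask how the transcriptomes of the glucose-sensing classes differ. All came from female ERα-ZsGreen mice on a C57BL6/J background, in which the mouse ERα promoter drives the fluorescent reporter ZsGreen, and lay in the vlVMH, the ventrolateral part of the ventromedial hypothalamus. A fall of bath glucose from 5 mM to 1 mM hyperpolarized the glucose-excited (GE) ERαvlVMH neurons 1, 4, 6 and 8 and depolarized the glucose-inhibited (GI) ERαvlVMH neurons 2, 3, 5 and 7. Mice of both sexes were 12 to 20 weeks old over the whole study, and no age is given for the mice of these neurons. The 8 neurons came from 2 mice and no source ties a neuron to a mouse, so each class was treated as 1 sample, and differences between the classes are given as a description with no test. GI neuron 3, left out by the study for its low read count, is not part of any class level below. Values are FPKM, fragments scaled to the length of the gene and to the mapped fragments of the library, with 0 where a neuron does not list a gene.

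Oxidative phosphorylation moves electrons along complexes of the inner mitochondrial membrane and uses the proton gradient they build to make ATP. Complex II (succinate dehydrogenase) passes electrons from succinate to ubiquinone, complex III hands them from ubiquinol to cytochrome c, complex IV (cytochrome c oxidase) delivers them to oxygen, and complex V (ATP synthase) makes ATP. Complex II is encoded wholly in the nucleus, whereas complexes III to V also hold subunits of the mitochondrial genome. In glucose-excited neurons the ATP made from glucose is a known link to the K-ATP channel, which closes when ATP is high.

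The libraries of the 7 neurons had 6144126 to 14900568 reads and listed 12547 to 14111 genes. GE neuron 1 had the most reads and the lowest share mapped, 48.2% against 74.7% to 77.3% in the other 6, and GI neuron 3 had 126914 reads. The summed FPKM over all genes was 1307730 in GE neuron 1 and 1428310 in GI neuron 2, against 1037550 to 1114860 in the other 5, so levels of these neurons do not stand on quite the same scale. The 7 neuronal markers summed to 1744 to 2453 FPKM in the 7 neurons. Markers of other cells were present in all of them, with summed levels of 315 to 1127 FPKM for 7 oligodendrocyte genes, 202 to 663 for 7 astrocyte genes, 438 to 1062 for 7 microglial genes and 947 to 5054 for 4 erythroid genes. In the deposited intervals, the arm above the value was a median of 3.63% to 6.80% of the value for members with a mean of at least 100 FPKM and 27.9% to 42.6% for the others. The interval's level and the errors it covers are not stated.

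Respiratory transcripts were among the most abundant RNAs of these neurons. The 59 members made up 7.85% to 10.1% of the summed FPKM of a neuron, and 20 of them were among the 100 genes with the highest mean over the 7 neurons. All but Cox4i2, Cox8b and Cox7b2 were listed in every one of the 7 neurons. Cox8a, a small membrane subunit of complex IV, had rank 13 of all genes, Uqcr11, a small subunit of complex III, rank 17, and Atp5k, subunit e of ATP synthase, rank 19. Sdhb, the iron-sulfur subunit of complex II, led its complex at rank 272.

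Within each complex the order of the subunits was nearly the same in every neuron. Sdhb was the highest and Sdha, the flavoprotein that holds the succinate site, the lowest subunit of complex II in all 7 neurons. In complex IV these places were held by Cox8a and Cox7a2l in all 7, and in complex V by Atp5k and Atp5a1. Cox7a2l, counted here with the structural subunits, had a mean of 191 FPKM, and the next lowest of complex IV, Cox7b, had 652 FPKM. The highest place in complex III changed between Uqcr11 in 3 neurons and Uqcr10 in 4, while the core protein gene Uqcrc2 was the lowest in all 7. The mean level of the highest subunit exceeded that of the lowest by 10.9-fold in complex II, 79.1-fold in complex III, 45.3-fold in complex IV and 47.0-fold in complex V. In each complex the highest subunit had a shorter transcript than the lowest, such as 371 bases for Atp5k and 2471 bases for Atp5a1. FPKM is divided by length, and the part of length in these folds was not tested. Across the 56 members listed in every neuron, Spearman correlations between the 12 pairs of neurons of different class were 0.982 to 0.992, against 0.983 to 0.991 for the 6 pairs of GE neurons and 0.982 to 0.990 for the 3 pairs of GI neurons. These correlations run across genes of very different level, which are not independent replicates, and are given as a description.

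**Figure D1:**
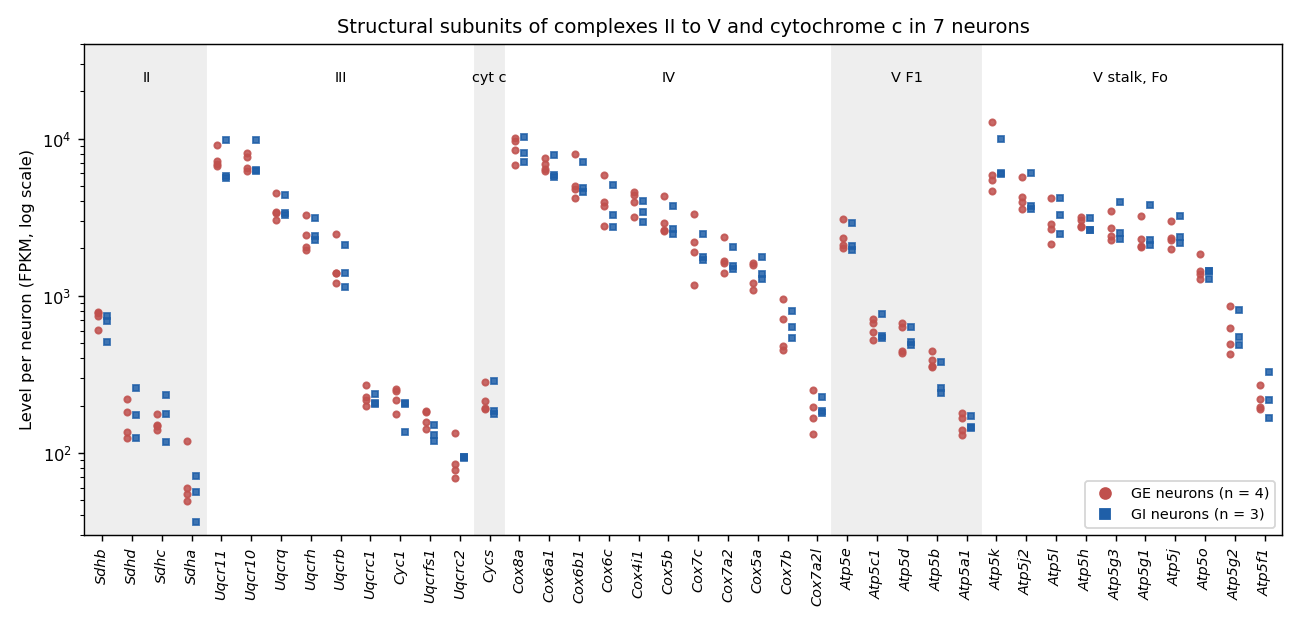
Level of each structural subunit and of cytochrome c in single neurons (FPKM, log axis), grouped by complex and ordered by mean level, with GE neurons as red circles (n = 4) and GI neurons as blue squares (n = 3). Subunits of complex III and IV above 1000 FPKM stand beside others near 100 to 200, such as Uqcrc2 and Cox7a2l, and the symbols of both classes overlap for every gene.

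Complex II genes had similar levels in both classes. Sdhb lay at 773, 604, 787 and 744 FPKM in GE neurons 1, 4, 6 and 8 and at 746, 506 and 695 FPKM in GI neurons 2, 5 and 7, with class means of 727 and 649. The classes overlapped, and the lowest value was that of GI neuron 5. Sdha had 59.9, 49.4, 54.5 and 119 FPKM in the GE neurons and 36.3, 71.4 and 56.5 FPKM in the GI neurons. Its log2 ratio of GE over GI level, with 1 FPKM added to both levels, was 0.36, but GE neuron 8 alone stood above the rest, and without it the ratio was -0.0035. The membrane anchors Sdhc and Sdhd had ratios of -0.19 and -0.17. Of the assembly factors, Sdhaf1, which helps place iron-sulfur clusters, had a ratio of 0.09, and Sdhaf2, which attaches the flavin to Sdha, had -0.36, its GE level being 20.1 FPKM and its GI level 26.1 FPKM.

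In complex III the Rieske protein and cytochrome c1, which carry electrons onward, had their higher levels in GE neurons. Uqcrfs1, the Rieske protein, had 181, 184, 142 and 158 FPKM in the GE neurons and 151, 120 and 129 FPKM in the GI neurons, a log2 ratio of 0.31. Only the overlap of GE neuron 6 with GI neuron 2 kept the classes from separating. Cyc1, cytochrome c1, had 247, 176, 217 and 255 FPKM in GE neurons and 203, 135 and 206 FPKM in GI neurons, a ratio of 0.30, and here GE neuron 4 lay below GI neurons 2 and 7. Both ratios were positive under the 13 alternatives that can turn the sign of a ratio (other scalings, medians, and neurons left out or added), from 0.24 to 0.54 for Uqcrfs1 and from 0.13 to 0.49 for Cyc1. The other 7 subunits had ratios near 0, among them the core proteins Uqcrc1 (0.08) and Uqcrc2 (-0.04). Uqcr11 had 9128, 6701, 7149 and 6870 FPKM in GE neurons and 9754, 5633 and 5765 FPKM in GI neurons, so that the highest values stood in GE neuron 1 and GI neuron 2. Cycs, the electron carrier cytochrome c between complexes III and IV, had 284, 194, 214 and 190 FPKM in GE neurons and 285, 185 and 177 FPKM in GI neurons, a ratio of 0.03, and again these same neurons led. GENCODE vM21 holds 9 pseudogenes named after members, among them copies of Cycs and Uqcrh. How reads shared with such copies were counted is not stated.

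The 11 structural subunits of complex IV had a median log2 ratio of 0.06, with 7 positive and 4 negative ratios, and the range was -0.10 to 0.22. Cox8a lay at 10078, 8460, 9610 and 6835 FPKM in GE neurons and at 10177, 8148 and 7143 FPKM in GI neurons. The lowest value was that of GE neuron 8 and the highest that of GI neuron 2, so the classes overlapped. The ratio of the class means was 0.04. Cox4i1, the general form of subunit 4, had the ratio farthest from 0 in this group (0.22), with 4598, 3157, 3956 and 4372 FPKM in GE neurons against 4032, 2959 and 3389 FPKM in GI neurons.

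Several complex IV subunits exist as paired isoforms, a general form and a form known from muscle, lung, testis or other tissues. In each of the 6 pairs examined, the general form led in every neuron. Cox4i2, known from lung and as a form induced by low oxygen, was listed in GE neuron 4 (2.61 FPKM), GI neuron 2 (1.17) and GI neuron 7 (15.2), and at 0 in the other 4. The deposited interval of the last value ran from 6.39 to 24.0 FPKM. Its share of subunit 4 RNA was thus at most 0.446%, in GI neuron 7. Cox8b, the form of heart and muscle, was listed at 12.6 FPKM in GE neuron 1 and 26.4 in GI neuron 2 only, at most 0.259% of subunit 8 RNA, with an interval of 6.45 to 46.4 FPKM in GI neuron 2. Cox7b2 was listed at 2.25, 1.28 and 0.0963 FPKM in GE neurons 1, 4 and 8 and at 0 in the other 4 neurons, and did not reach the level filter.

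The heart and muscle forms Cox6a2 and Cox7a1 were listed in all 7 neurons. Cox6a2 had 108, 80.0, 106 and 58.0 FPKM in GE neurons and 176, 124 and 62.0 FPKM in GI neurons, between 0.919% and 2.18% of subunit 6a RNA, with a log2 ratio of -0.45. GI neuron 7 lay with the low GE neurons, so the classes overlapped, and without GI neuron 2 the ratio was -0.08. Cox7a1 had 83.6, 70.5, 24.6 and 37.2 FPKM in GE neurons and 11.1, 33.1 and 65.8 FPKM in GI neurons, between 0.543% and 4.08% of subunit 7a RNA. Its ratio of 0.55 spanned 0.13 to 1.25 when single neurons were left out and turned to -0.16 without both GE neuron 1 and GI neuron 2. Cox6b2, the testis form, had 39.2, 49.4, 44.3 and 37.4 FPKM in GE neurons and 51.9, 28.1 and 33.2 FPKM in GI neurons, at most 1.03% of subunit 6b RNA.

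The general forms of subunits 6a, 6b and 7a were higher by far and had ratios close to 0. Cox6a1 had 7476, 6390, 6858 and 6256 FPKM in GE neurons and 7882, 5735 and 5848 FPKM in GI neurons (0.06). Cox6b1 had 7964, 4766, 5013 and 4180 FPKM in GE neurons and 7142, 4872 and 4589 FPKM in GI neurons (-0.01). Cox7a2 had 2367, 1660, 1621 and 1392 FPKM in GE neurons and 2036, 1482 and 1554 FPKM in GI neurons (0.06). In all 3 the classes overlapped, and GE neuron 1 and GI neuron 2 were the 2 highest.

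Assembly factors of complex IV were mostly low, and their ratios rested on few neurons. Cox17, a copper chaperone, was the exception in level at 1146 to 2703 FPKM, with a log2 ratio of 0.08. Cox10, which makes the heme O precursor of the complex IV hemes, had 4.06, 8.21, 5.78 and 6.80 FPKM in GE neurons and 2.73, 3.34 and 5.63 FPKM in GI neurons. This was the largest ratio toward GE neurons, 0.56, and GE neuron 1 was the one GE neuron within the GI range. GI neuron 3 listed Cox10 at 44.4 FPKM, and with that neuron added the ratio was -1.06. Cox19, another copper factor, had 112, 116, 47.0 and 137 FPKM in GE neurons and 122, 117 and 179 FPKM in GI neurons. Its ratio was -0.43, with GE neuron 6 lowest and GI neuron 7 highest, and it was negative under the same 13 alternatives (-0.60 to -0.10).

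Complex V split by part of the enzyme in the sign of the ratios, though not in their size. All 5 F1 subunits had positive log2 ratios, with a median of 0.01, and 8 of the 10 stalk and Fo subunits had negative ones, with a median of -0.07. Leaving out single neurons moved these medians between -0.076 and 0.20 and between -0.24 and 0.16, across 0 in both cases. The F1 ratios of Atp5a1, Atp5d and Atp5c1 were only 0.0014, 0.0052 and 0.011. Their signs held under 5, 8 and 8 of the same 13 alternatives. Atp5b, the catalytic beta subunit, stood apart from the other F1 genes with 352, 359, 388 and 443 FPKM in GE neurons and 240, 258 and 376 FPKM in GI neurons. The ratio was 0.40, and GI neuron 7 alone lay within the GE range. It was positive under the same 13 alternatives (0.28 to 0.63). Atp5a1, the alpha subunit that alternates with beta in the F1 head, had class means of 154 FPKM in both classes.

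Atp5k had 12678, 5839, 5430 and 4640 FPKM in GE neurons and 9987, 5938 and 6043 FPKM in GI neurons, a log2 ratio of -0.03. GE neuron 1 and GI neuron 2 stood far above the other 5 neurons, which lay within a narrow range. Atp5h, a subunit of the peripheral stalk, varied least of all 59 members, from 2614 to 3187 FPKM, with a coefficient of variation of 8.30% over the 7 neurons. The c subunit of the rotor is made from Atp5g1, Atp5g2 and Atp5g3, which encode the same mature protein. Atp5g1 made up 38.3% to 44.998% of their summed FPKM, Atp5g2 9.02% to 11.6% and Atp5g3 45.4% to 50.1%, with Atp5g3 the highest in every neuron. In FPKM, Atp5g3 had 3483, 2261, 2382 and 2697 in GE neurons and 3965, 2301 and 2509 in GI neurons, and Atp5g1 had 3227, 2054, 2312 and 2062 in GE neurons and 3775, 2279 and 2098 in GI neurons. Atp5g2 had 861, 428, 491 and 627 FPKM in GE neurons and 806, 485 and 544 FPKM in GI neurons. GE neuron 1 and GI neuron 2 were again the highest for all of them, although the shares hardly moved. Reads from the part these genes have in common could be split between them in a way that is not stated. The mean shares of Atp5g3 were 47.4% in GE and 46.8% in GI neurons.

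Atpif1, which encodes the inhibitor that stops ATP synthase from running backward, had 7096, 4093, 4552 and 3885 FPKM in GE neurons and 6709, 4404 and 4236 FPKM in GI neurons, a log2 ratio of -0.06. Once more GE neuron 1 and GI neuron 2 were the 2 highest. Atp5s, at 9.996, 15.4, 5.35 and 8.38 FPKM in GE neurons and 26.3, 10.7 and 3.75 FPKM in GI neurons, had a ratio of -0.43, which rested on GI neuron 2 and was 0.39 without it.

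Over all members, the class levels differed by less than the spread of the neurons. The log2 ratio of the summed level was 0.01, where the SD between neurons of a class was 0.30 on that scale (n = 7 neurons). A filter of 5 FPKM on the higher class level kept 57 of the 59 members and 6990 genes in all. The level was higher in GE neurons for 30 and in GI neurons for 27, where 52.3% of all genes were higher in GE neurons, and the median log2 ratio was 0.0052 against 0.02 for all genes. In no member did all neurons of a class lie above all neurons of the other, as happened for 4.69% of all genes. The ratio passed 1 in either direction for 6.62% of all genes and for 2 members, Cox8b (-1.24) and Cox4i2 (-1.96). Cox4i2 passed the level filter through GI neuron 7 alone and Cox8b through GI neuron 2 alone, and for both genes the classes overlapped. The absolute ratio was under 0.2 for 71.9% of the members and 38.8% of all genes. Since members are mostly abundant, the like comparison is with abundant genes: the median absolute ratio was 0.08 for the 42 members with a mean of at least 100 FPKM and 0.14 for the 1099 genes of that level.

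Of the markers of other cells, the erythroid genes had summed levels that did not overlap between the classes, 947 to 2240 FPKM in GE and 2906 to 5054 FPKM in GI neurons. The oligodendrocyte genes overlapped, at 462 to 1127 FPKM in GE and 315 to 622 FPKM in GI neurons, and so did the astrocyte genes, at 366 to 663 FPKM in GE and 202 to 436 FPKM in GI neurons. Among genes that passed the level filter, 5 of 6 astrocyte, 5 of 6 oligodendrocyte and 5 of 7 microglial genes were higher in GE neurons. Of the erythroid genes, 0 of 3 were. The part of these markers in the class ratios of the members was not tested.

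**Figure D2:**
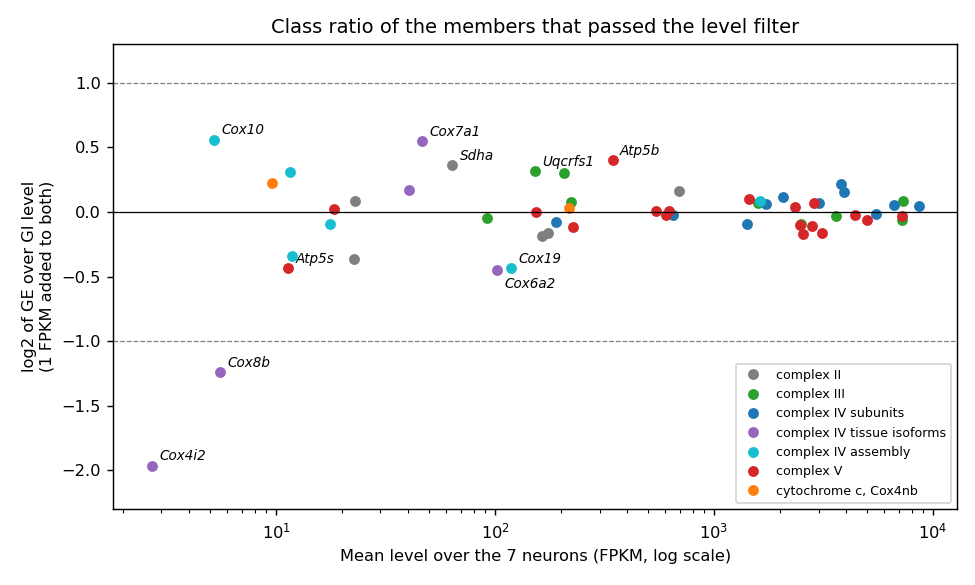
Log2 ratio of GE over GI level (1 FPKM added to both) against mean level over the 7 neurons (FPKM, log axis) for the 57 members that passed the level filter, coloured by role. Dashed lines mark a ratio of 1 in either direction, which Cox8b and Cox4i2 pass at levels under 10 FPKM, and the ratios of members above 1000 FPKM lie between -0.17 and 0.22.

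The even balance of the count depended on single neurons, with the lowest and highest counts without GE neuron 1 and GI neuron 2. Without GE neuron 1, GE levels were the higher ones in 16 of 57 members, and without GI neuron 2 in 47 of 56, while the share among all genes stayed at 52.4% and 52.8%. The count was 20 of 57 without GI neuron 5 and 20 of 56 without GI neuron 7, where 46.9% and 56.4% of all genes were higher in GE neurons. It was 37, 32 and 31 of 57 without GE neurons 4, 6 and 8, where 55.05%, 55.9% and 46.4% of all genes were. Without both GE neuron 1 and GI neuron 2, it was 35 of 56, where 53.1% of all genes were higher in GE neurons. In that set of 3 GE and 2 GI neurons, 9 of the 56 members no longer overlapped, a share not above the 19.3% of all genes. Of these, Atp5h, Cox10, Cox18, Cox6a1, Cox6b2, Cycs, Uqcr11 and Uqcrfs1 were higher in GE neurons and Atp5k was higher in GI neurons.

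The respiratory genes varied mainly between neurons of the same class. The members summed to 132038, 90757, 95608 and 84787 FPKM in GE neurons 1, 4, 6 and 8, and to 127203, 87492 and 85787 FPKM in GI neurons 2, 5 and 7. The high neurons, 1 of each class, stood 1.33-fold or more above the highest of the other 5, and those 5 overlapped between the classes. Scaling by the median of ratios left these neurons in place, at 129852 and 126987 against at most 98673 FPKM. Scaling to the same sum without the 100 highest genes also did so, at 122734 and 112631 against at most 100863 FPKM. With the neurons brought to the same sum without mitochondrial-genome genes, GE neuron 1 was at 114582 FPKM and GI neuron 2 at 100814 FPKM, within the 89705 to 101971 FPKM of the others.

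**Figure D3:**
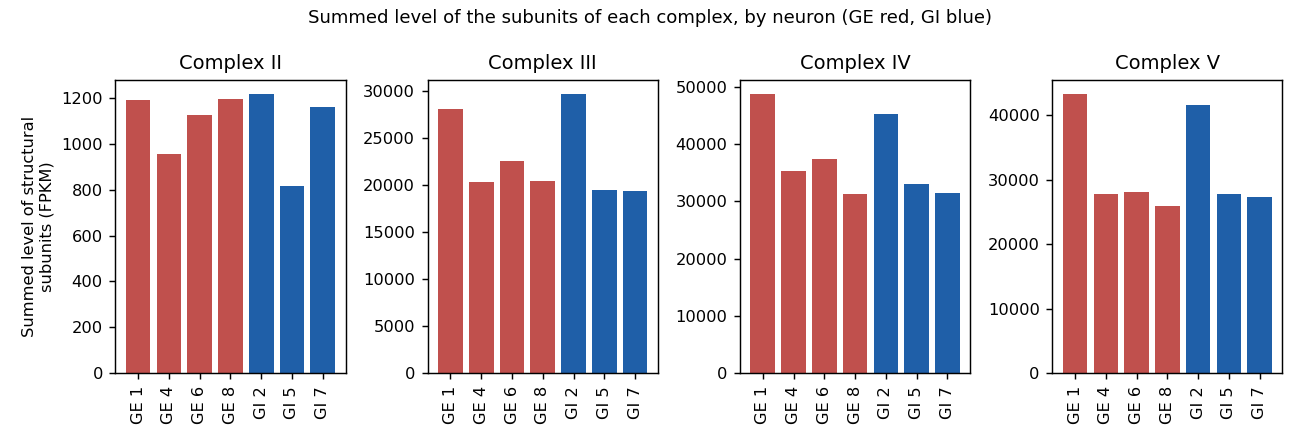
Summed level of the structural subunits of each complex in each neuron (FPKM, bars from 0), with GE neurons in red and GI neurons in blue. GE neuron 1 and GI neuron 2 have the highest bars for complexes III, IV and V, while for complex II GE neuron 8 lies level with them.

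The complexes did not take part in this alike. Complex V subunits summed to 43343 FPKM in GE neuron 1 and 41550 in GI neuron 2 against 25972 to 28095 in the others, and complex IV to 48820 and 45265 against 31369 to 37497. For complex II the sums of these neurons, 1192 and 1218 FPKM, were close to those of GE neuron 8 (1195) and GI neuron 7 (1159). To compare genes of different level, each value was set against the gene's own median over the 7 neurons on the log2 scale. The 10 stalk and Fo subunits of complex V had a median deviation of 0.49 in GE neuron 1 and 0.58 in GI neuron 2, and in all 10 of them these were the 2 highest neurons. The same held for 10 of 11 complex IV subunits, 5 of 9 complex III subunits, 1 of 5 F1 subunits and 1 of 4 complex II subunits.

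Most of the high genes had a short coding region, a split that was chosen after the values were seen. Of the 28 members with a coding length under 400 bases, 24 had GE neuron 1 and GI neuron 2 as their 2 highest neurons, and the median deviations were 0.54 and 0.45. The exceptions were Cox19, Cox6a2, Cox6b2 and Cox7a1, the last with its lowest value in GI neuron 2. Their mean levels were low for short members, at 118, 102, 40.5 and 46.6 FPKM. Of the 15 members of 400 to 800 bases, 8 showed it, with median deviations of 0.31 and 0.33. None of the 13 members of 800 bases or more did, among them Sdha, Sdhb, Uqcrc1, Uqcrc2, Atp5a1 and Atp5b, and their median deviations were -0.03 and 0. In GE neuron 1 the low assembly factors Cox11, Cox15, Cox18 and Cox10 had -2.12, -1.35, -0.65 and -0.47. Long members with a mean above 100 FPKM ran from -0.11 (Uqcrc1) to 0.30 (Atp5a1) there, and from -0.58 (Atp5b) to 0.39 (Atp5c1) in GI neuron 2. The scale of a neuron cancels in the difference between its short and long members, apart from its effect on the genes' medians. This difference was 0.57, 0.05, 0 and -0.50 in GE neurons 1, 4, 6 and 8 and 0.45, 0.19 and -0.11 in GI neurons 2, 5 and 7. Split by transcript length instead, at under 800 and from 2000 bases, it was 0.28 in GE neuron 1 and 0.26 in GI neuron 2. Among members with a mean of at least 100 FPKM only, it was 0.35 and 0.47. Short and long members also differed in level. The highest mean of a long member was 694 FPKM (Sdhb), and that of a short member was 8636 FPKM (Cox8a). All members with a mean above 1000 FPKM but Cox4i1 had GE neuron 1 and GI neuron 2 as their 2 highest neurons. The parts of length and level in this pattern were not separated.

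**Figure D4:**
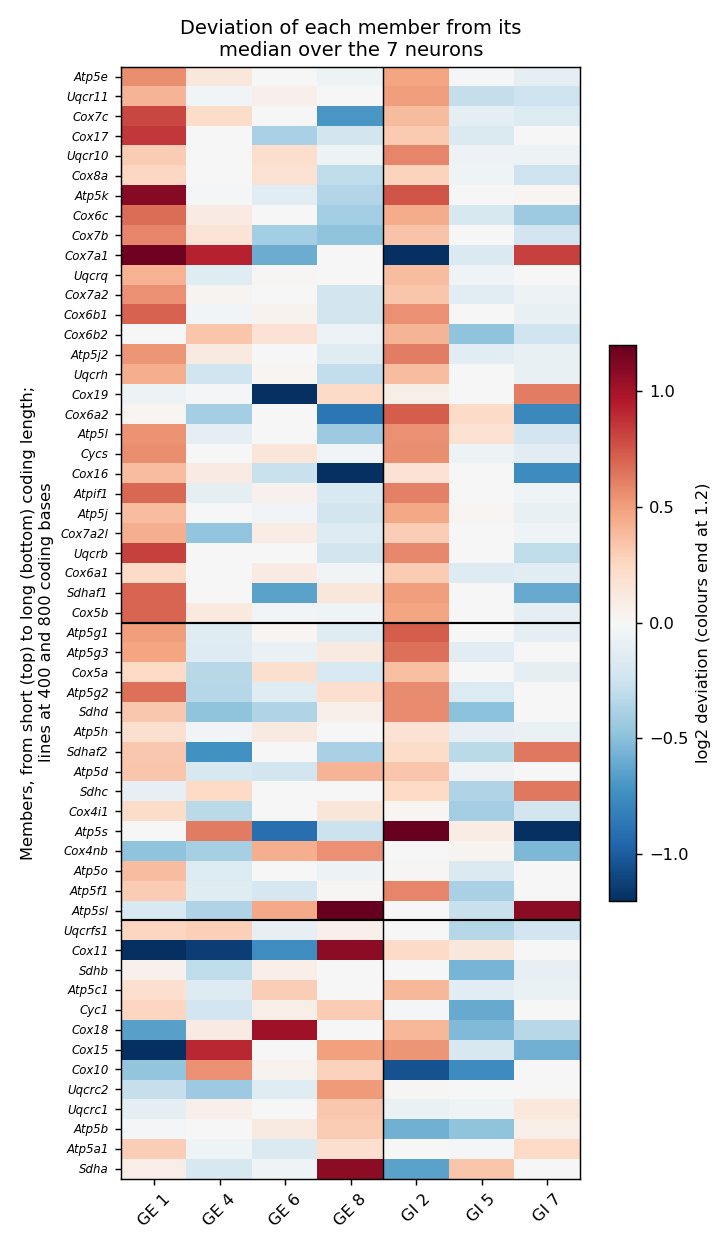
Log2 deviation of each of the 56 members listed in every neuron from its own median over the 7 neurons (colour), with neurons in columns and members in rows from short to long coding length, and lines at 400 and 800 coding bases. The top block is red in GE neuron 1 and GI neuron 2, and the bottom block is not, where GE neuron 8 is high for Sdha, Cox11 and Uqcrc2.

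Short genes outside complexes II to V were also high in these neurons, to a different degree by group. Short complex I genes (15 genes named Nduf) had median deviations of 0.59 in GE neuron 1 and 0.49 in GI neuron 2, and 28 short genes of cytosolic ribosomal proteins had 0.72 and 0.46. The 567 genes other than members with under 400 coding bases and a mean of at least 5 FPKM had 0.14 and 0.24. The 309 of them with at least 100 FPKM had 0.28 and 0.30. Both sets include the short complex I and ribosomal genes of that level. GE neuron 1 and GI neuron 2 were the 2 highest neurons for 80.0% of the 15 complex I genes, 85.7% of the 28 ribosomal genes and 85.7% of the short members. For the 567 genes, which are not separate from these complex I and ribosomal genes, it was 30.5%, and for the 309 it was 46.6%. For members, GE neuron 8 stood at the other end, with medians of -0.20 for short members and 0.30 for long ones. In that neuron the medians were -0.20 for short and 0.27 for long complex I genes, and -0.19 for the short ribosomal genes. Genes other than members had 0 for short and 0.20 for long coding regions.

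**Figure D5:**
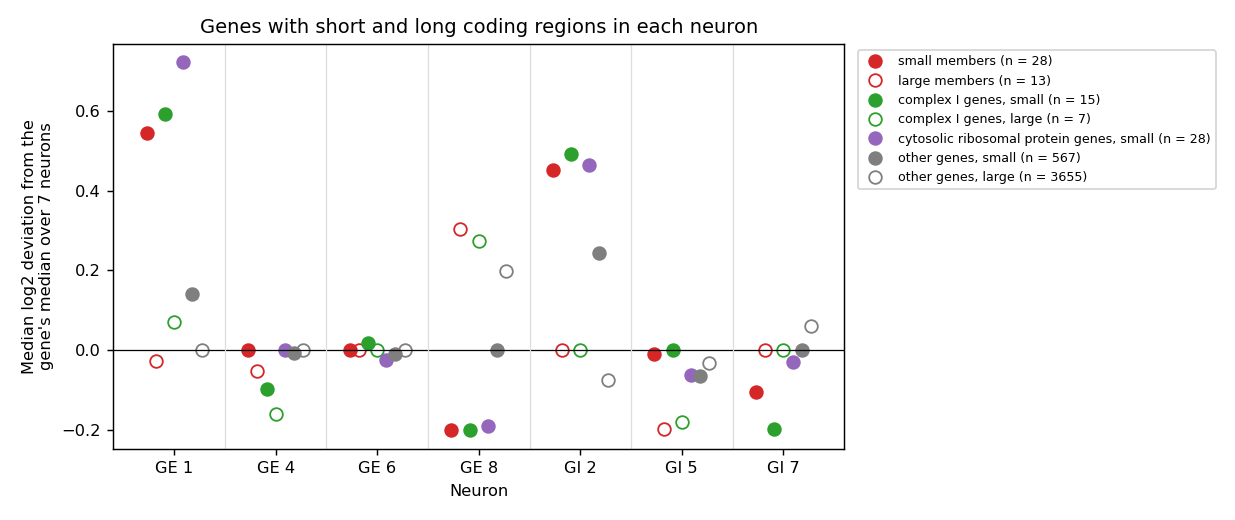
Median log2 deviation from the gene's own median in each neuron, for genes with coding regions under 400 bases (filled) and of 800 bases or more (open). Groups are members, complex I genes, cytosolic ribosomal protein genes and all genes other than members with a mean of at least 5 FPKM. The last group includes the complex I and ribosomal genes of that level. Short members lie at 0.54 in GE neuron 1 and 0.45 in GI neuron 2 and at -0.20 in GE neuron 8, where long members lie at 0.30.

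Other features of the libraries set these neurons apart. The summed neuronal markers were highest in GE neuron 1 and GI neuron 2, at 2453 and 2212 FPKM against 1744 to 2165 FPKM. Uchl1 held much of these sums (1367 and 1275 FPKM). Uchl1, Stmn2, Snap25 and Elavl4 had these neurons as their 2 highest. Rbfox3 (17.1 and 8.30 FPKM) and Tubb3 (97.3 and 96.2 FPKM) had them as their 2 lowest. Syt1 was lowest in GI neuron 2 (18.7 FPKM). These neurons had the 2 lowest summed levels of oligodendrocyte markers, 462 and 315 FPKM against 503 to 1127 in the other 5 neurons, and of astrocyte markers, 366 and 202 against 423 to 663 FPKM. They were also the 2 neurons with the highest summed FPKM over all genes, and GE neuron 1 had the lowest share of mapped reads, while GI neuron 2 (74.7%) did not stand apart. Microglial markers were at 438 and 530 FPKM against 579 to 1062 FPKM. The part of these features in the levels of the members was not tested.

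The subunits of complexes III to V that the mitochondrial genome encodes followed another order. They summed to 55590, 61140, 87154 and 51504 FPKM in GE neurons 1, 4, 6 and 8 and to 59596, 82811 and 55548 FPKM in GI neurons 2, 5 and 7, so GE neuron 6 and GI neuron 5 were high and the classes overlapped. All 6 genes had the higher mean in GI neurons, with log2 ratios from -0.16 to -0.01 and none without overlap. mt-Atp8, the shortest of them, differed from the others in having its highest levels in GI neuron 2 (4421 FPKM) and GE neuron 1 (4275 FPKM), against 1661 to 2844 FPKM elsewhere.

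Of other genes of the pathway, 3 more subunits of complexes IV and V, Ndufa4, Usmg5 and 2010107E04Rik, had ratios between -0.02 and 0.01 at 1982 to 10215 FPKM. Of 12 further assembly factors that passed the level filter, 5 had positive and 7 negative ratios, with a median of -0.16. Only Pet117, an assembly factor of complex IV, passed a ratio of 1 (1.28), with 23.1 FPKM in GE neuron 1, 3.07 FPKM in GE neuron 4, 6.29 FPKM in GI neuron 7 and 0 in the other 4, and so the classes overlapped. Tmem70, which helps build the ATP synthase rotor, had the most negative ratio, -0.61, at 23.5, 35.2, 15.1 and 24.6 FPKM in GE neurons and 55.8, 31.4 and 26.7 FPKM in GI neurons. Regulators of respiratory genes were scarce. Of 11, the mitochondrial transcription factors Tfb1m (ratio 0.04) and Tfb2m (0.46) passed the filter, and the coactivator Ppargc1a had a GE level of 2.29 FPKM and a GI level of 1.11 FPKM.

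Promoters are shown for the member with the highest mean level in each complex, since factors of the NRF1 and ETS (GABP) families are known to act on many respiratory genes. Each sequence is from RefSeq on GRCm38.p6, runs 5′ to 3′ along the gene from 250 bases before the start to 50 after it, and has in capitals the letters GCATGCG (a core of the NRF1 site) or CCGGAAG (ETS) on either strand. These letters were chosen after the expression data were seen, and the NRF1 letters replaced a longer pattern after its matches had been seen. Sdhb lies at chr4:140961021-140961320 on the plus strand, and Uqcr11 at chr10:80406772-80407071, Cox8a at chr19:7217567-7217866 and Atp5k at chr5:108434350-108434649, all on the minus strand.
Sdhb: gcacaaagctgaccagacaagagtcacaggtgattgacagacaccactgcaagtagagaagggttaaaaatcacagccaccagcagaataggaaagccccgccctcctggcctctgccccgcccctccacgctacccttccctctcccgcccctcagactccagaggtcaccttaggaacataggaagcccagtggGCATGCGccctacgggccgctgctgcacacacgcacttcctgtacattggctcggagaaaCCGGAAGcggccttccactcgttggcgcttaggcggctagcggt
Uqcr11: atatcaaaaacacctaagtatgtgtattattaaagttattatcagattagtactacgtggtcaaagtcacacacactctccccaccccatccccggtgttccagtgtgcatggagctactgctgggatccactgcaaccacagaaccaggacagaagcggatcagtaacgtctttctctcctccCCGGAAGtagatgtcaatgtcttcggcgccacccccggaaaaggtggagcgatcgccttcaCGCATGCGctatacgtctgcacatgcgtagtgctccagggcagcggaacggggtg
Cox8a: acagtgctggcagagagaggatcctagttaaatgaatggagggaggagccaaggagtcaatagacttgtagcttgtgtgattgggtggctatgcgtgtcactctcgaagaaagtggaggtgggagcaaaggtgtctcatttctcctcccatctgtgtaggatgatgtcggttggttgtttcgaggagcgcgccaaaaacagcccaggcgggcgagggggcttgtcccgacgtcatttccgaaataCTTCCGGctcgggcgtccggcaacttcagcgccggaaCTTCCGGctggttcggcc
Atp5k: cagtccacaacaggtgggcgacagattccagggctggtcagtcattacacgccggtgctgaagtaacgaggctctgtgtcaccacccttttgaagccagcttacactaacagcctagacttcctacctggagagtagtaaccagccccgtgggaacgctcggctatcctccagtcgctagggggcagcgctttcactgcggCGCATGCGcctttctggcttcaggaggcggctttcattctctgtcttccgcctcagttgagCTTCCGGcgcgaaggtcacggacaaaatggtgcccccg

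All 4 held the ETS letters, Cox8a at 2 places, and all but Cox8a held the NRF1 letters. For complex III this rests on a close choice. Uqcr10 had a mean of 7254 FPKM against 7286 FPKM for Uqcr11 and was the higher one in 4 neurons. Its promoter held neither the ETS nor the NRF1 letters. In Uqcr11 and Atp5k the NRF1 letters were present on both strands, overlapping by all but 1 base, and no NRF1 match overlapped an ETS match in the sequences shown. A promoter was matched for 44 of the 59 members. The ETS letters were found in 16 of the 44 (36.4%), against 20.2% of the promoters of 5383 other genes that passed the level filter and 8.86% of all 32851 promoters in the RefSeq set. The NRF1 letters were found in 8 of the 44 (18.2%), against 7.17% and 3.58%. The longer NRF1 pattern searched first, GCGC and TGCGC with any base between them, was found in 10 of the 44 (22.7%), against 11.7% and 4.60%, and with A between them in 4 (9.09%), against 2.08% and 0.971%. The genes with the shorter letters include Sdhb, Uqcrc1, Uqcr11, Cox6a1, Atp5k and Cycs, and so genes with short and with long coding regions. A match describes the letters only and is not a measured site.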

How the data were processed

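Single neurons were lysed and amplified with SMART-Seq v4, made into Nextera libraries and sequenced as 100-base pairs. The authors deposited for each neuron a table of FPKM values, scaled within each library, that lists genes above 0 with the bounds of an interval. Aligner and annotation of the FPKM tables: not given in the sources used here. Both builds, GRCm38.p6 and GRCh38, stand in the submitters' processing notes, and the sample descriptions also carry a line on human cells, so the build of the FPKM values is not settled by the labels. Counts of the study that were not used here came from featureCounts 1.6.0 after trimming with Trim Galore 0.4.1 and alignment to GRCm38.p6 with STAR 2.5.3a. A deposited table of library quality gives reads and the fraction of reads mapped, made by the authors.

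Gene names that had several rows (110) or had become dates (24) were dropped. Class levels are means of FPKM over 4 GE or 3 GI neurons, ratios are log2((GE + 1)/(GI + 1)), and statements on many genes keep those whose higher class level is 5 FPKM or more. This scale understates changes of low genes. Coding lengths are those of principal transcripts in GENCODE vM21 (GRCm38). All 59 members were matched to it, by current or older name. Pathway and marker lists were also used. The members and lists were chosen with earlier results of these data known. Full values are given for the highest member of each complex, the 5 largest ratios in each direction, members past 1 or without overlap, isoform pairs, Cycs and Atpif1. Other members named with values, such as Cyc1, Atp5h and Pet117, were chosen after their values were seen.

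The alternatives were medians in place of means, addition of GI neuron 3, omission of each neuron, pseudocounts of 0.1 and 5, no filter or 20 FPKM, 3 scalings, structural subunits only and rows of one name summed. Leaving out GE neuron 1 and GI neuron 2 together, the splits by length and the restriction to members of at least 100 FPKM were added after the data were seen. Python 3.11.15, numpy 2.4.6, pandas 2.3.3 and matplotlib 3.10.9 were used, and the ratio and scaling steps were tested on simulated data. Amplified reads are not independent molecules.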

Additional observations from a re-analysis of the deposited data

Results flagged for a closer look

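Within the 4 GE neurons, 6 of 64 values examined (59 members and 5 sums) had 1 neuron far from the other 3, with a gap to the nearest that exceeded Dixon's 95% critical value. Chance flags about 1 in 20, and the values share neurons. GE neuron 1 was high for Atp5k (12678 FPKM, others 4640 to 5839), Uqcrb (2470 FPKM, others 1201 to 1404) and the sum of complex V subunits (43343 FPKM, others 25972 to 28095). GE neuron 8 was high for Sdha, at 119 FPKM against 49.4 to 59.9 FPKM. Cox4i2 was listed in GE neuron 4 only (2.61 FPKM) and Cox8b in GE neuron 1 only (12.6 FPKM). With the other 3 neurons at 0, any value above 0 exceeds the critical value, so these 2 carry no information on spread, and the deposited interval of Cox4i2 starts at 0. The class of 3 GI neurons is too small for this rule.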

How the results depend on the processing

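No paired analysis was possible because no source ties a neuron to a mouse. The number of members past a ratio of 1 (2) was 0 with the median of the neurons, a pseudocount of 5, a filter at 20 FPKM or structural subunits only, and 1 with GI neuron 3 added, with scaling by the median of ratios or without GE neuron 1 and GI neuron 2. It was 1 to 2 when single neurons were left out. The share of all genes past 1 was 6.62% in the main setting and was not computed under these alternatives. These counts are thus not read as a result about the members. The number without overlap (0) was 1 (Uqcrfs1) with either scaling to the same sum, 2 (Atp5b and Cox19) with the median of ratios and 9 without GE neuron 1 and GI neuron 2, and 0 to 6 with single neurons left out, where 4.02%, 4.39%, 5.13%, 19.3% and 8.45% to 13.9% of all genes did not overlap. The median of other assembly factors was 0.10 with GI neuron 3 added, -0.37 at 20 FPKM and -0.34 to 0.25 with single neurons left out, and that of regulators was -0.72 with GI neuron 3, 0.77 without GE neuron 1 and GI neuron 2 and -0.15 to 0.55 with single neurons left out. The median of the F1 subunits ran from -0.076 to 0.20. The median of all members ran from -0.14 to 0.19 and the count higher in GE neurons from 16 to 47 with single neurons left out. The sign of the ratio changed under some alternative for 44 of 57 members. The difference between short and long members stayed positive in GE neuron 1 and GI neuron 2, and was lowest with the split by transcript length (0.28 and 0.26). Pseudocount, filter and the median of the neurons do not enter it, so these alternatives could not change it. Scaling acts on it only through the genes' medians. The split by length was itself chosen after the values were seen. The causes were not tested. With each class 1 sample of unknown split between 2 mice, classes and mice cannot be told apart.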

Other observations

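GI neuron 3, with 126914 reads, listed 49 of the 59 members, which made up 6.64% of its summed FPKM. Its Atpif1 level was 15067 FPKM, against 3885 to 7096 FPKM in the other 7 neurons, and with it in the GI class the log2 ratio of Atpif1 was -0.63. It did not list Cox6a2, Cox6b2 or Cox7a1, which every other neuron listed at 11.1 FPKM or more. In the median, the arm of its deposited intervals above the value was 45.9% of the value for members with a mean of at least 100 FPKM.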
